A study of Mus musculus and Rattus norvegicus with 18 samples.

Results

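The effect of TGF-β on the rat kidney fibroblast line NRK49F was read from 6 of the 18 libraries of the series, 3 control and 3 TGF-β libraries. The comparison was taken over the genes that carried enough counts in a group to be tested, 11444 of the 22050 genes in the table. A further 7261 genes had no count in the 6 libraries, and 3345 had a count and stayed below the filter. The series asks whether narciclasine, a plant alkaloid, alters the response of kidney cells to TGF-β1, in mouse primary tubular epithelial cells (TECs) and in NRK49F. Polyadenylated RNA was sequenced on an Illumina instrument. NRK49F cells were held without serum for 6 h and then received 5 ng/ml TGF-β1 for 24 h, while control cells had medium and no added agent. Another group of 3 NRK49F libraries was given 20 nM narciclasine 2 h ahead of TGF-β1. It entered the filter, the scaling and the estimate of the spread. NRK49F is a single line of normal rat kidney fibroblasts, so the replicates, which the series calls biological, do not measure the spread between animals.

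TGF-β is a secreted cytokine that is stored outside the cell in a latent form and, once active, binds paired type I and type II receptor kinases. The receptors phosphorylate SMAD2 and SMAD3, which join SMAD4 in the nucleus and turn on target genes, among them inhibitors that dampen the same pathway. In kidney fibroblasts it is known for driving matrix deposition and the myofibroblast state, in which the cell gains smooth muscle actin and contractile fibres.

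Total counts were 15503662, 14818642 and 15242924 in control replicates 1, 2 and 3, and 16309795, 14695732 and 14981306 in the TGF-β replicates. Levels are given as CPM, the count of a gene scaled to the size of its library, and triplets of values follow replicates 1, 2 and 3. They compare a gene between libraries and not 1 gene with another, since no transcript lengths were used. Replicate 2 stood apart in both groups. The mean squared difference between libraries, in units of counting error, was 20.7 and 20.8 for control replicate 2 against its partners and 2.38 between control replicates 1 and 3. For TGF-β replicate 2 it was 11.9 and 10.3, against 3.16 between replicates 1 and 3. Of 6751 genes at 20 CPM or more in control cells, 15 were at least 2-fold higher in control replicate 2 than in the other controls and 4 at least 2-fold lower. Of 6746 such genes in TGF-β cells, 3 were at least 2-fold lower in TGF-β replicate 2 and none was higher. Values without replicate 2 are given below where a call changed or a value moved by over 1.5 times, other than for genes with 3 counts or fewer in a group, which are given as ratios.

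The fibroblast label was checked against a list of 13 fibroblast markers in the table. Col1a1, Col3a1 and Vim were abundant, Tcf21 had no count in the 6 libraries, and Thy1 and Dcn stayed under 1 CPM in each. The summed level of the list was 14170.0 to 16570 CPM in control and 41924 to 43718 CPM with TGF-β. Of 17 tubular markers, Pax2, Lrp2, Umod, Slc12a1 and Aqp2 had no count, and 8 more, among them Cdh1, Epcam and Pax8, stayed under 1 CPM. Their sum fell between 1232 and 1337 CPM in control and between 688 and 796 CPM with TGF-β, and most of it was the keratin gene Krt8. Macrophage and leukocyte markers summed to 77.8 to 122 CPM in control and 119.6 to 126 CPM with TGF-β, with Ptprc and Csf1r under 1 CPM in every library and Cd3e at 0. Endothelial markers summed to 14.1 to 18.2 and 18.9 to 21.2 CPM, with Cldn5 and Esam at 0 and Cdh5 and Kdr under 1 CPM. Pericyte and smooth muscle markers summed to 54.7 to 71.8 and 210.1 to 248 CPM. Kcnj8 was at 0, and Rgs5, Mcam and Abcc9 stayed under 1 CPM. With TGF-β most of that sum was Acta2, at 194, 234 and 197 CPM. Of the 6 members tested, 2 were higher, Acta2 among them, and 3 lower, with a median log2 change of -0.99. The part of other cells in the results below was not tested. In bulk RNA, fewer cells of a kind and less RNA per cell cannot be told apart.

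Some symbols, 133 in all, stood for more than 1 entry, with 277 entries between them. For 45 of these symbols at least 2 entries were tested, and for 16 of the 45 the entries were called in opposite directions. Ndufa10l1, named for its likeness to a subunit of respiratory complex I, had 77.4, 70.3 and 68.5 CPM in control and 0.197, 0.288 and 0.0706 CPM with TGF-β at one entry, and 0.30, 0.0633 and 0.0611 against 69.4, 73.5 and 65.6 CPM at the other. Each group used a different entry, with no overlap. Summed over both entries the level was 72.2 ± 4.86 CPM in control and 69.7 ± 4.08 CPM with TGF-β (SD, n = 3 libraries per group; log2 change -0.05, edgeR adjusted p = 0.549). Gnas, which encodes the stimulatory G protein subunit, went from 23.6, 29.7 and 16.8 to 0, 0.144 and 0 CPM at one entry and from 0.240, 0.190 and 0 to 31.2, 20.0 and 33.7 CPM at the other. Hoxa11, a homeobox factor of limb and kidney patterning, went from 41.3, 45.0 and 40.2 to 0, 3.53 and 0 CPM and from 1.98, 2.91 and 3.54 to 46.5, 45.8 and 49.4 CPM. The sums of Gnas (log2 change 0.27, edgeR adjusted p = 0.369) and Hoxa11 (0.10, adjusted p = 0.203) did not pass.

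The libraries with narciclasine and TGF-β mostly lay with the TGF-β libraries in these switches. At the control entry of Ndufa10l1 they had 0.290, 0.380 and 0.596 CPM, and at the other 94.0, 78.3 and 87.2 CPM. Over all 32 entries of the 16 symbols, their mean was nearer to the TGF-β mean than to the control mean in 30. Of the 16 sums, 9 passed the test and 7 did not. For Calm2, which encodes calmodulin, the sum changed by -0.18 (edgeR adjusted p = 0.0152), against changes of up to 3.44 at its entries. TGF-β and any other difference that set the control libraries apart from the remaining libraries cannot be told apart here. Entries that share a symbol were left out of the gene lists below, and the change of such an entry alone is not a change of its gene.

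**Figure D1:**
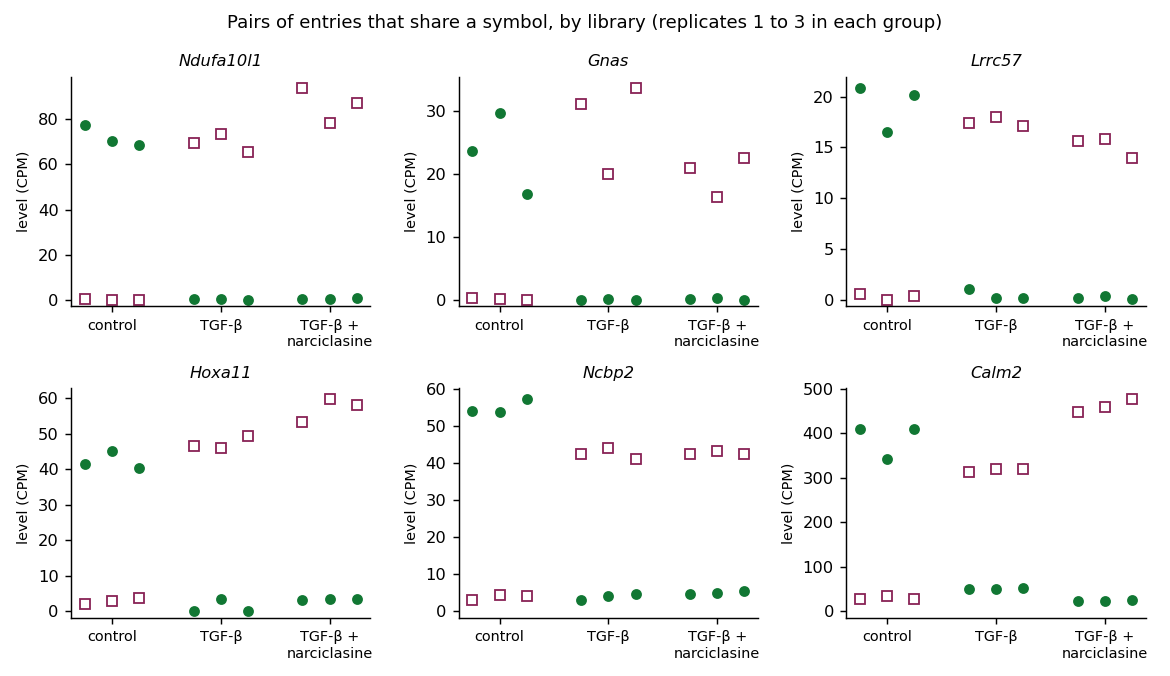
Level (CPM, y axis) at both entries of 6 symbols in each library of the 3 NRK49F groups; filled circles are the entry that was lower with TGF-β and open squares the entry that was higher. The entry that carries the counts in control cells is near 0 in the other 6 libraries for Ndufa10l1, Gnas and Lrrc57.

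TGF-β was followed by changes in most of the transcriptome. A total of 8216 genes (71.8% of those tested) passed the edgeR quasi-likelihood test at an adjusted p under 0.05, of which 3862 (33.7%) were higher and 4354 (38.0%) lower. A change of at least 2-fold was called for 1356 higher (11.8%) and 1289 lower genes (11.3%). The 3 control and 3 TGF-β libraries did not overlap for 8503 genes (74.3%). A lack of overlap, where given below, was thus the usual case. The median log2 change of all genes tested was -0.05. Without replicate 2 in every group, 4051 genes were higher and 4496 lower, and 7875 of the 8216 calls were kept in the same direction.

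The split depends on the scaling. The 10 most abundant genes took 7.28 to 7.38% of counts in control and 12 to 12.6% with TGF-β. When libraries were scaled by total counts alone, 2965 genes were higher and 5497 lower, the median of all genes moved from -0.05 to -0.24, and 35.0% of the changed genes were higher in place of 47.0%. With the 6 control and TGF-β libraries scaled and fitted alone, 4017 genes were higher and 3923 lower, with a median of 0.0003.

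**Figure D2:**
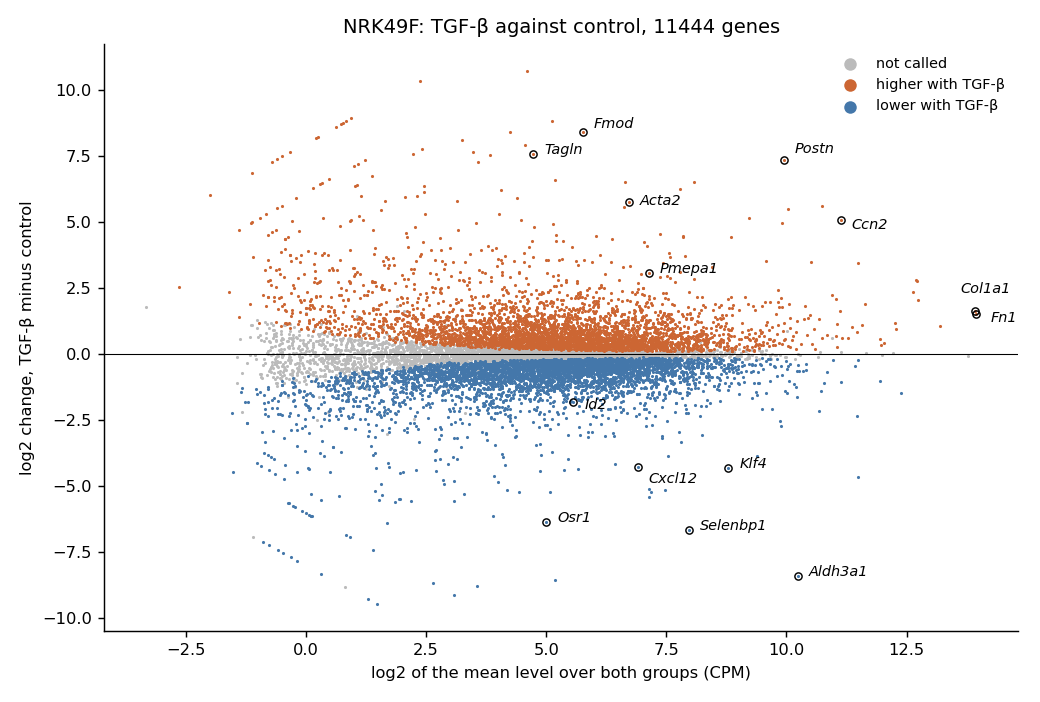
Log2 change from control to TGF-β (y axis) against the log2 mean level of both groups in CPM (x axis) for the 11444 genes tested; orange genes were higher, blue lower and grey not called. Slanting rows of points at the left are genes with next to no count in a group, whose fitted change depends on the added prior count.

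The largest rises took in matrix proteins and genes that were close to silent in control cells. Entries that share a symbol were left out of the largest changes. Whether counts of the genes given moved from or to an entry under another symbol was not tested, for rises or falls. Srpx2 (ENSRNOG00000003715), a secreted sushi-repeat protein, had 0, 0 and 0.0611 CPM in control libraries and 48.5, 46.3 and 50.3 CPM with TGF-β, a ratio of 2363 (95% counting interval 424 to 93389). Its controls held 1 count in all. Fmod, the collagen-binding proteoglycan fibromodulin, had 0.30, 0.316 and 0.305 CPM in control libraries and 96.4, 132 and 95.5 CPM with TGF-β, a log2 difference of 8.42 (SE 0.32, adjusted p = 8.98e-09). F13a1, the transglutaminase coagulation factor XIII A, rose from a mean of 0.103 to 37.8 CPM, and Lmcd1, a LIM and cysteine-rich domain protein, from 0.185 to 46.8 CPM. Dcx, the microtubule protein doublecortin, rose by 6.58 and Inhbe, an activin subunit, by 7.65 (8.32 without control replicate 3, which held most of its few control counts). The cathepsin gene Ctsw had a ratio of 311 (95% counting interval 106 to 1509), and the G protein regulator Rgs14 one of 262 (95% counting interval 72.2 to 2172).

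The largest falls took in the detoxifying enzyme Aldh3a1 and the developmental factor Osr1. Aldh3a1 (ENSRNOG00000002331), an aldehyde dehydrogenase, had 2614, 1993 and 2606 CPM in control libraries and 6.10, 8.43 and 6.78 CPM with TGF-β, a log2 difference of -8.41 (SE 0.18, adjusted p = 8.06e-11). The lowest control was replicate 2. Groups that do not overlap were a condition for naming the largest changes. Osr1, a zinc finger factor of kidney mesenchyme, had 67.3, 54.9 and 67.8 CPM in control libraries and 0.524, 1.08 and 0.706 CPM with TGF-β and changed by -6.36 (SE 0.17, adjusted p = 1.61e-13). Selenbp1, a selenium-binding protein, changed by -6.64 and the tetraspanin Tspan8 by -6.11. The keratin gene Krt16 had 4.68, 7.40 and 4.52 CPM in control and no count with TGF-β, at least 79.5-fold lower with 3 counts over the group as the floor, and Krt19 changed by -5.55. The parathyroid hormone receptor gene Pth2r was lower by a ratio of 736 (95% counting interval 132 to 29096). For Cyp2c11, a cytochrome P450, the ratio was 226 (95% counting interval 40.2 to 8963), and for the phosphodiesterase gene Pde1c it was 92.5 (95% counting interval 31.4 to 451). Pkhd1l1, related to fibrocystin, changed by -5.61. Gdpd2, a glycerophosphodiester phosphodiesterase, changed by -5.55, and by -4.23 without replicate 2 and -6.29 without TGF-β replicate 1. Its control replicate 2 was the highest at 16.5 CPM. An entry listed as NEWGENE_1359268 had 5.46, 22.3 and 9.65 CPM in control libraries and 0.0656, 0 and 0 CPM with TGF-β, again highest in control replicate 2.

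**Figure D3:**
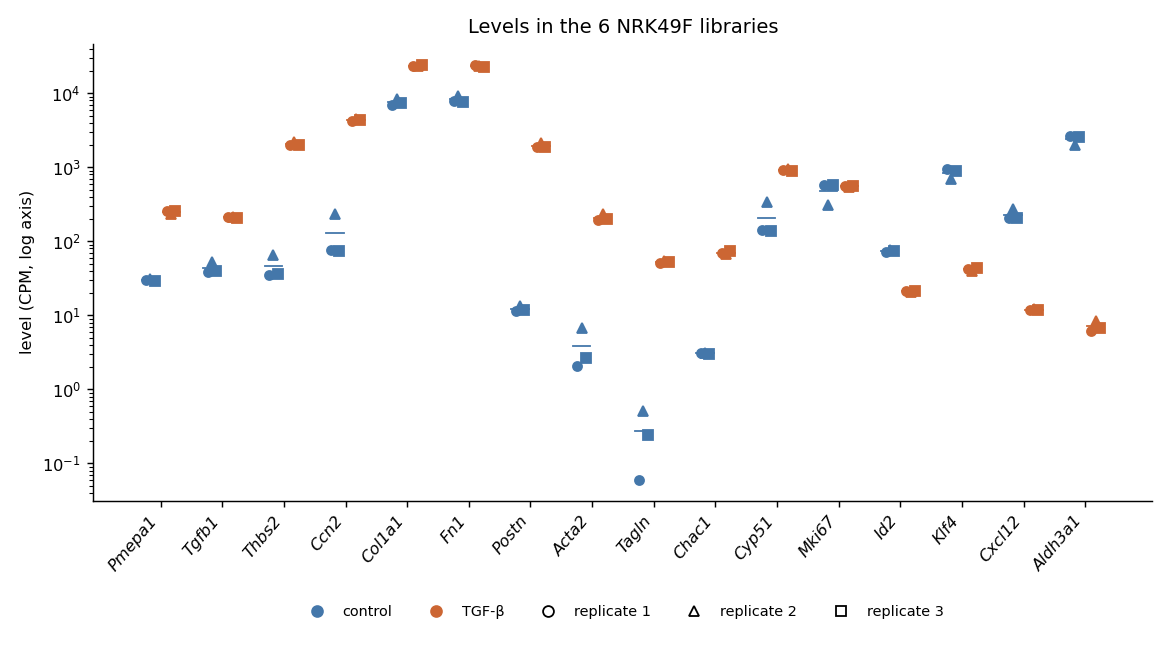
Level (CPM, log axis) of 16 genes in each of the 6 libraries; blue is control, orange TGF-β, circles, triangles and squares are replicates 1, 2 and 3, and the bars are group means. Control replicate 2 (blue triangles) stands off its partners for Thbs2, Ccn2, Acta2, Cyp51 and Mki67, and among the genes shown the groups overlap for Mki67.

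Among the ligands Tgfb1 and Inhba rose and Inhbb fell, while the receptor genes Tgfbr2 and Tgfbr3 fell. Of 21 ligands, receptors and SMADs named, 20 were tested. Among these, 9 (45.0%) were higher and 9 (45.0%) lower, beside 33.7% and 38.0% of all genes, with a median of 0.28 that became -0.02 without TGF-β replicate 2. Tgfb1 (ENSRNOG00000020652), the ligand itself, had 38.8, 52.3 and 39.4 CPM in control libraries and 215, 216 and 208 CPM with TGF-β, a log2 difference of 2.29 (SE 0.11, adjusted p = 6.33e-09). Inhba, which encodes the activin A subunit, had 11.6, 17.6 and 10.4 CPM in control libraries and 240.1, 250.5 and 252 CPM with TGF-β and changed by 4.23 (SE 0.16, adjusted p = 6.15e-09). Inhbb, the activin B subunit, had 22.5, 25.7 and 23.5 CPM in control libraries and 3.08, 2.81 and 3.03 CPM with TGF-β, a log2 change of -3.0. The groups did not overlap for Inhba or Inhbb, as for 74.3% of all genes. Tgfbr3, the co-receptor betaglycan, fell from a mean of 148 to 26.6 CPM, a log2 difference of -2.47 (SE 0.06, adjusted p = 1.36e-13). Tgfbr1, the type I receptor, had 67.2, 63.4 and 65.6 CPM in control libraries and 76.6, 72.4 and 67.5 CPM with TGF-β. Its groups did not overlap, but the change of 0.14 did not pass (edgeR adjusted p = 0.0620) and changed sign by total counts. Without TGF-β replicate 3 it passed, at 0.19 (adjusted p = 0.0302, with a range over alternatives of 0.0208 to 0.557). It also passed with RLE factors (0.18), by the DESeq2 Wald test (0.18) and in the 6 control and TGF-β libraries alone (0.19). In those 6 it passed with the replicate block (0.19) and without replicate 2 (0.15) too. Chosen after their values were seen, the type II receptor gene Tgfbr2 changed by -0.99, Smad3 by -0.96 and Tgfb2 by 1.55.

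Negative regulators of the SMAD pathway were mostly higher. Of 15 feedback genes named, 14 were tested, and 10 (71.4%) were higher and 3 (21.4%) lower, beside 33.7% and 38.0% of all genes. Their median was 0.78. Pmepa1 (ENSRNOG00000050404), a membrane protein that sequesters SMADs, had 29.6, 31.2 and 29.3 CPM in control libraries and 257, 236 and 258 CPM with TGF-β, a log2 difference of 3.06 (SE 0.07, adjusted p = 3.56e-14). Skil, the corepressor SnoN, had 26.5, 26.9 and 28.5 CPM in control libraries and 94.4, 107 and 101 CPM with TGF-β and rose by 1.88 (SE 0.07, adjusted p = 2.83e-12). The lowest TGF-β library was more than 3-fold above the highest control for both. Smad7, the inhibitory SMAD that blocks the receptor, had 32.4, 41.8 and 34.7 CPM in control libraries and 71.8, 65.7 and 63.4 CPM with TGF-β and rose by 0.88 (SE 0.09, adjusted p = 5.17e-07). Fst, the activin trap follistatin, rose by 2.32. The 3 members that fell were Smad6 (-1.69), Nedd4l (-1.22) and Bambi (-0.82), which are inhibitors too.

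The ID genes and the BMP antagonist Nbl1 were lower. Of the ID genes, which encode inhibitors of DNA binding and answer to BMP, Id2 had 71.7, 75.9 and 72.9 CPM in control libraries and 21.6, 20.7 and 21.4 CPM with TGF-β, a log2 difference of -1.79 (SE 0.07, adjusted p = 6.90e-12). Id1 changed by -1.12 and Id3 by -0.91. No control library overlapped a TGF-β library in any of the 3, as for 74.3% of all genes. Nbl1, a secreted BMP antagonist, had 204, 304 and 199 CPM in control libraries and 35.1, 37.0 and 35.1 CPM with TGF-β and changed by -2.72 (SE 0.18, adjusted p = 2.52e-06). Bmp6, a ligand, rose by 2.29, and the receptor gene Bmpr1b was higher by a ratio of 71.8 (95% counting interval 24.2 to 351). Of 24 genes of the BMP axis named, 18 were tested, with a median of -0.19. Among these, 5 (27.8%) were higher and 9 (50%) lower, beside 33.7% and 38.0% of all genes. Without control replicate 2 the number higher was 8.

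Most genes known as effectors of TGF-β were higher. Ccn2 (ENSRNOG00000015036), connective tissue growth factor, had 76.2, 233 and 74.6 CPM in control libraries and 4281, 4501 and 4313 CPM with TGF-β, a log2 difference of 5.09 (SE 0.52, adjusted p = 0.000128). Control replicate 2 held more Ccn2 than both other controls combined, and without it the change was 5.85. Ccn1, a sister gene of Ccn2, rose by 3.29, or by 4.0 without control replicate 2. Dact1, a regulator of WNT and TGF-β signalling, went from 0.120, 0.190 and 0 to 4.79, 7.78 and 5.86 CPM and rose by 5.80 (6.49 without control replicate 2). Il11, a fibrogenic cytokine, stayed low at 0.0600, 0.253 and 0.305 CPM in control libraries and 0.918, 1.87 and 1.91 CPM with TGF-β, with a change of 2.88 (SE 0.49, adjusted p = 8.87e-05). Edn1, which encodes endothelin 1, had 3.18, 5.44 and 3.18 CPM in control libraries and 5.38, 4.97 and 4.16 CPM with TGF-β, and its groups overlapped. The edgeR test of Edn1 did not pass (log2 change 0.30, adjusted p = 0.430), while without replicate 2 in every group it was 0.58 (adjusted p = 0.0268; range over alternatives 0.0268 to 0.760). Of 28 effector genes named, 26 were tested, with a median of 1.92 against -0.05 for all genes. Among the 26, 18 (69.2%) were higher and 4 (15.4%) lower, beside 33.7% and 38.0% of all genes. The 4 that fell were Jun (-1.67), Fosl2 (-1.23), Cdkn1a (-0.77) and Klf10 (-0.58).

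**Figure D4:**
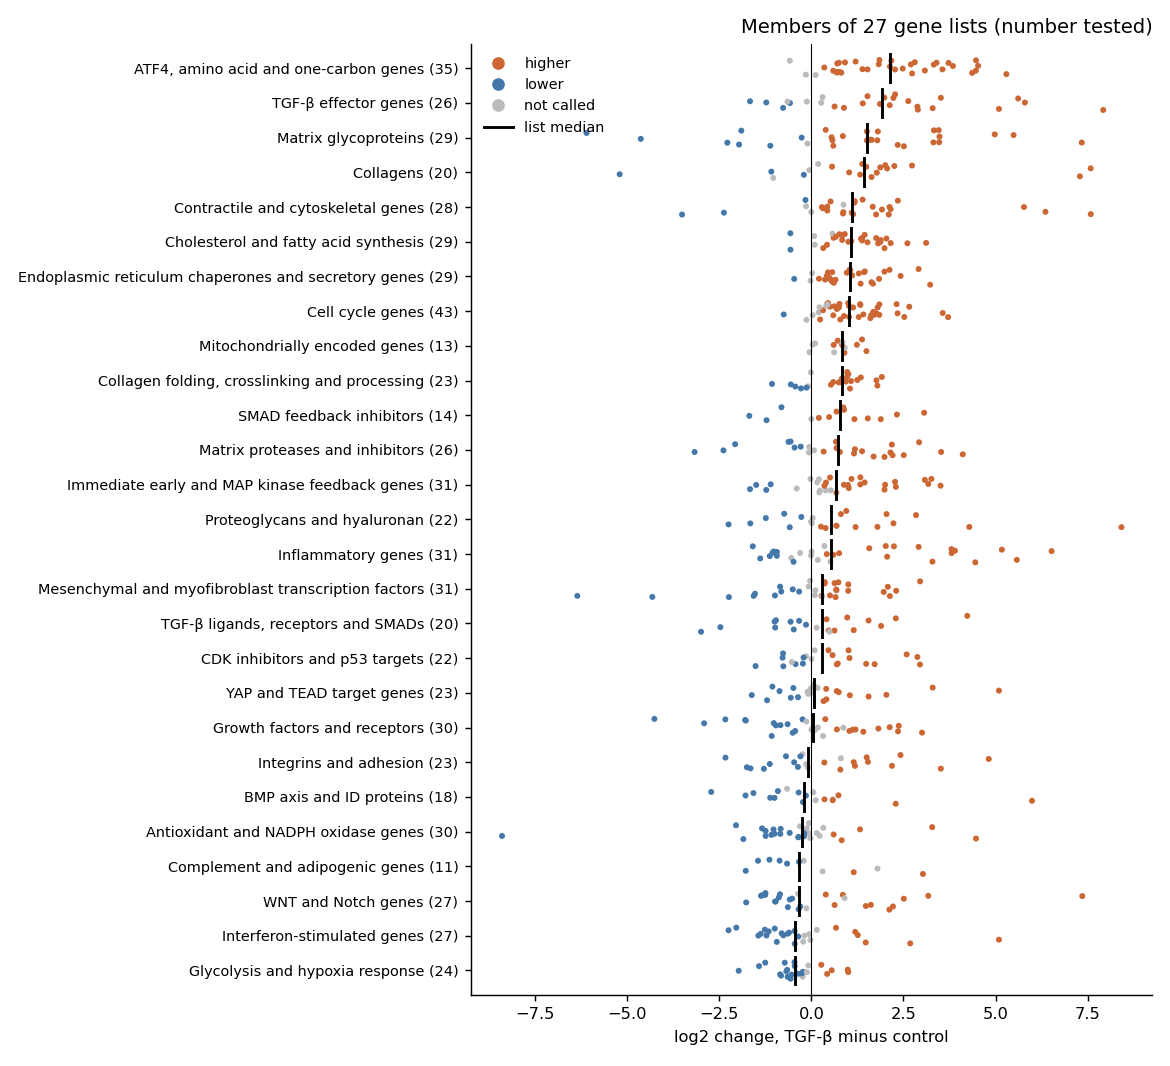
Log2 change from control to TGF-β (x axis) of each tested member of 27 gene lists (rows, with the number tested), ordered by the list median (black bar); orange members were higher, blue lower and grey not called. The amino acid, effector and matrix lists lie to the right, with medians of 2.13, 1.92 and 1.51, and glycolysis and interferon genes to the left; members with 3 counts or fewer in a group, such as Wnt2, stand at fitted values that depend on the prior count.

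Most collagen genes that were tested rose. Of 27 collagen genes named, 20 were tested, with a median of 1.44. Among the 20, 14 (70.0%) were higher and 3 (15.0%) lower, beside 33.7% and 38.0% of all genes. Col1a1 (ENSRNOG00000003897), the main chain of type I collagen, had 7030.4, 8468 and 7299.5 CPM in control libraries and 23348, 23039 and 24298 CPM with TGF-β, a log2 difference of 1.63 (SE 0.07, adjusted p = 3.06e-11). Col3a1, the fibrillar type III chain, had 2586, 2732 and 2601 CPM in control libraries and 11359, 10372 and 11199.8 CPM with TGF-β and rose by 2.06 (SE 0.06, adjusted p = 5.46e-13). Both groups were tight and apart, with control replicate 2 the highest of the controls for each. Col5a1, which nucleates fibrils, rose by 1.32. Col11a1, another fibrillar chain, went from 0.0600, 0 and 0.367 to 24.6, 21.6 and 24.8 CPM and rose by 7.29, or 9.26 without control replicate 3, and Col7a1, the anchoring fibril collagen, was higher by a ratio of 229 (95% counting interval 63.0 to 1897). Col14a1, a fibril-associated collagen, went the other way with 69.6, 58.6 and 69.9 CPM in control libraries and 2.36, 1.44 and 1.48 CPM with TGF-β, a log2 difference of -5.21 (SE 0.16, adjusted p = 6.62e-13). The other 2 that fell were the basement membrane chains Col4a6 (-1.09) and Col4a5 (-0.21). No entry carried the symbol Col1a2, so it is not in these list counts. Whether an entry under another symbol stands for it was not checked. An abundant entry pair that was not matched to a gene name is given at the end.

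Matrix glycoproteins, the adhesive and matricellular proteins of the matrix, mostly rose. Of 38 named, 29 were tested, and 21 (72.4%) were higher and 7 (24.1%) lower, beside 33.7% and 38.0% of all genes. Their median was 1.51. Postn (ENSRNOG00000012660), periostin, had 11.3, 13.4 and 11.7 CPM in control libraries and 1901, 2146 and 1862 CPM with TGF-β, a log2 difference of 7.34 (SE 0.11, adjusted p = 1.01e-15). Fn1 (ENSRNOG00000014288), fibronectin, had 7905, 9260.5 and 7609.6 CPM in control libraries and 23961, 23641 and 22789.7 CPM with TGF-β, a log2 difference of 1.51 (SE 0.07, adjusted p = 1.26e-10). Thbs2, the matricellular protein thrombospondin 2, had 34.7, 65.8 and 36.7 CPM in control libraries and 1991, 2179 and 1993 CPM with TGF-β and rose by 5.49 (SE 0.26, adjusted p = 9.38e-07). In all 3 genes the lowest TGF-β library was above the highest control, which was replicate 2. Efemp1, fibulin 3, was lower by a ratio of 92.2 (95% counting interval 16.2 to 3676). A further pair was chosen after its values were seen. Tnc, tenascin C, rose by 4.98 from a mean of 58.8 CPM. Ccn3, a CCN protein known to oppose Ccn2, fell from 5241, 5898 and 5449.9 to 208, 249 and 209 CPM, a log2 difference of -4.64 (SE 0.09, adjusted p = 3.85e-15). Eln, elastin, stayed below the filter, with 0, 0.380 and 0.611 CPM in control libraries and 0.0656, 0.0721 and 0.0706 CPM with TGF-β.

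Enzymes that fold, hydroxylate and crosslink collagen mostly rose. Of 28 named, 23 were tested, and 16 (69.6%) were higher and 5 (21.7%) lower, beside 33.7% and 38.0% of all genes. Their median was 0.83. Lox, lysyl oxidase, which crosslinks collagen and elastin, had 1191, 1604 and 1199 CPM in control libraries and 5140.4, 5056 and 4838 CPM with TGF-β, a log2 difference of 1.91 (SE 0.10, adjusted p = 1.78e-09). Plod2, a lysyl hydroxylase, rose by 1.79 and Loxl2, another lysyl oxidase, by 1.77, with no overlap between groups, as for 74.3% of all genes. The 5 that fell were Loxl1 (-1.07), Adamts2 (-0.56), Pcolce (-0.44), P3h4 (-0.28) and Plod1 (-0.14), and the last lost its call without control replicate 1, control replicate 3, TGF-β replicate 2 or TGF-β replicate 3.

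Proteoglycans and hyaluronan genes were mixed. Of 22 tested among 31 named, 13 (59.1%) were higher and 6 (27.3%) lower, beside 33.7% and 38.0% of all genes. Their median was 0.53. Lum, the small leucine-rich proteoglycan lumican, had 3.12, 5.63 and 2.02 CPM in control libraries and 69.3, 71.6 and 68.9 CPM with TGF-β and rose by 4.29 (SE 0.22, adjusted p = 4.92e-08). Chsy1, which builds chondroitin sulfate chains, had 62.0, 73.2 and 62.1 CPM in control libraries and 469, 476 and 468 CPM with TGF-β and rose by 2.84 (SE 0.07, adjusted p = 5.24e-14). Neither gene had overlapping groups, as was so for 74.3% of all genes. Among proteases and their inhibitors, 26 of 35 were tested, with a median of 0.73. Beside the same shares of all genes, 16 (61.5%) were higher and 7 (26.9%) lower. Adamts12, a metalloproteinase with thrombospondin motifs, had 13.4, 19.9 and 11.4 CPM in control libraries and 258, 265 and 248 CPM with TGF-β, a log2 difference of 4.11 (SE 0.18, adjusted p = 5.92e-08), and its relative Adamts6 rose by 3.52. Serpinb2, the inhibitor PAI-2, fell from 1.14, 1.96 and 0.855 to 0.131, 0.144 and 0.141 CPM. Timp1, an inhibitor of metalloproteinases, changed by -0.29 (SE 0.08, adjusted p = 0.00341). Mmp3, stromelysin 1, had 33.3, 45.2 and 32.3 CPM in control libraries and 36.4, 29.0 and 40.9 CPM with TGF-β, with overlapping groups and no call (log2 change -0.06, adjusted p = 0.854). Without replicate 2 in every group Mmp3 was called higher, at 0.23 (edgeR adjusted p = 0.0136; range over alternatives 0.00418 to 0.987).

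Most contractile genes rose. Of 32 contractile and cytoskeletal genes named, 28 were tested, with a median of 1.11. Among the 28, 22 (78.6%) were higher and 3 (10.7%) lower, beside 33.7% and 38.0% of all genes. By total counts, where the median of all genes was -0.24, 19 were higher and 5 lower, Tpm2 and Vcl being added to those lower. Acta2 (ENSRNOG00000058039), smooth muscle α-actin and the standard marker of myofibroblasts, had 2.1, 6.71 and 2.69 CPM in control libraries and 194, 234 and 197 CPM with TGF-β, a log2 difference of 5.77 (SE 0.33, adjusted p = 3.25e-06), or 6.44 without control replicate 2. Tagln, the actin-binding protein SM22, had 0.0600, 0.506 and 0.244 CPM in control libraries and 51.0, 54.2 and 53.1 CPM with TGF-β, a log2 difference of 7.59 (SE 0.38, adjusted p = 1.46e-07), or 8.37 without control replicate 2. Control replicate 2 was the highest control for both and still far below every TGF-β library. Actg2, smooth muscle γ-actin, was higher by a ratio of 97.0 (95% counting interval 26.5 to 807), and Vim, the intermediate filament vimentin, rose by 1.18 (SE 0.06, adjusted p = 2.83e-10). Some genes of mature smooth muscle fell. Lmod1, leiomodin, had 14.7, 20.2 and 16.9 CPM in control libraries and 1.64, 1.44 and 1.41 CPM with TGF-β, a log2 difference of -3.52 (SE 0.18, adjusted p = 2.35e-10), and Myh11, smooth muscle myosin, changed by -2.38 from a mean of 24.2 CPM. Cnn1, calponin, stayed below the filter with 0.0600, 0 and 0 CPM in control libraries and 0.393, 0.360 and 0.423 CPM with TGF-β.

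Integrin and adhesion genes moved both ways, with shares near the background. Of 23 tested among 31 named, 10 (43.5%) were higher and 9 (39.1%) lower, beside 33.7% and 38.0% of all genes. Their median was -0.09. The members named are integrin subunits of collagen receptors and a pair of cadherins. Itga11 had 117, 127 and 124 CPM in control libraries and 1408, 1399.8 and 1399 CPM with TGF-β and rose by 3.51 (SE 0.06, adjusted p = 2.97e-15), Itga2 rose by 4.82 and Itga1 by 2.42. Cdh2, N-cadherin, had 88.3, 103 and 93.4 CPM in control libraries and 269.5, 277 and 279 CPM with TGF-β and rose by 1.53 (SE 0.06, adjusted p = 1.45e-11). Cdh11, a mesenchymal cadherin, had 196, 259 and 190.1 CPM in control libraries and 177, 199 and 167 CPM with TGF-β with overlapping groups, and its change of -0.25 did not pass (edgeR adjusted p = 0.0707). It passed without control replicate 1 (-0.31), without control replicate 3 (-0.33), without TGF-β replicate 2 (-0.32) and without replicate 2 in every group (-0.17). Other alternatives that passed were the replicate block (-0.24), total counts (-0.43), and the 6 libraries with the block (-0.18) or without replicate 2 (-0.13). The adjusted p of Cdh11 was 0.00111 to 0.184 over the alternatives.

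Of 37 transcription factors named for the mesenchymal state, 31 were tested, with a median of 0.29. Among the 31, 16 (51.6%) were higher and 10 (32.3%) lower, beside 33.7% and 38.0% of all genes. Klf4 (ENSRNOG00000016299), a Krüppel-like factor, had 939, 692 and 903 CPM in control libraries and 42.7, 39.6 and 44.2 CPM with TGF-β, a log2 difference of -4.32 (SE 0.13, adjusted p = 3.44e-10). Gli1, a Hedgehog effector that marks perivascular progenitors, had 1.5, 2.09 and 1.96 CPM in control libraries and 14.7, 12.5 and 15.7 CPM with TGF-β and rose by 2.95 (SE 0.22, adjusted p = 1.42e-08). Both sets of libraries were apart for these genes, as for 74.3% of all genes. Among the EMT factors, chosen after their values were seen, Snai1 rose by 2.30 while Snai2 changed by -2.24 and Zeb2 by -1.53.

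Growth factor genes split, with 11 of 30 tested members higher (36.7%) and 13 lower (43.3%), close to the shares over all genes, of 43 named. Their median was 0.05, and -0.14 by total counts (-0.24 for all genes), -0.02 without control replicate 1 and -0.08 without control replicate 3. Cxcl12, the chemokine SDF-1, had 206, 276 and 204 CPM in control libraries and 11.7, 12.3 and 11.6 CPM with TGF-β, a log2 difference of -4.27 (SE 0.13, adjusted p = 3.08e-11). Egfr, the epidermal growth factor receptor, rose by 3.01 (SE 0.18, adjusted p = 1.47e-07) from 8.87, 11.1 and 5.38 to 65.6, 70.3 and 67.8 CPM, while its ligand Areg, amphiregulin, changed by -2.92. Pdgfra, a receptor for platelet-derived growth factor, had 333, 399 and 330.0 CPM in control libraries and 184, 191 and 168 CPM with TGF-β and changed by -0.97 (SE 0.08, adjusted p = 2.85e-08).

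More inflammatory genes rose than fell. Of 31 tested among 40 named, 16 (51.6%) were higher and 8 (25.8%) lower, beside 33.7% and 38.0% of all genes. Their median was 0.52. Il1rl1 (ENSRNOG00000014835), the receptor of interleukin 33, had 1.92, 2.15 and 2.38 CPM in control libraries and 202, 196 and 198 CPM with TGF-β, a log2 difference of 6.52 (SE 0.11, adjusted p = 2.91e-15). Ptgs2, the inducible cyclooxygenase, had 4.14, 4.75 and 3.24 CPM in control libraries and 190.2, 209.9 and 180.1 CPM with TGF-β, a log2 difference of 5.58 (SE 0.11, adjusted p = 9.21e-15). Each TGF-β library of these genes held many times the count of any control. Ccl2, a monocyte chemokine, had 30.5, 49.4 and 40.3 CPM in control libraries and 899, 798 and 928 CPM with TGF-β and rose by 4.45 (SE 0.16, adjusted p = 8.61e-09). Il6 rose by 3.81 from a mean of 0.693 CPM, and Csf2, which encodes GM-CSF, was higher by a ratio of 49.6 (95% counting interval 8.46 to 2004). The summed macrophage and leukocyte markers ranged from 77.8 to 122 CPM in control and from 119.6 to 126 CPM with TGF-β, with Ptprc under 1 CPM throughout.

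Interferon-stimulated genes were mostly lower. All 27 named were tested, and 6 (22.2%) were higher and 16 (59.3%) lower, beside 33.7% and 38.0% of all genes. Their median was -0.46. Xaf1, an apoptosis-promoting target, went from 3.0, 3.29 and 3.42 to 0.459, 1.30 and 0.282 CPM and changed by -2.25 (SE 0.40, adjusted p = 0.000145), or -3.09 without TGF-β replicate 2. The largest changes among the members were rises, Ifit3 at 5.09 and Rsad2 at 2.68, both antiviral effectors. Of 11 complement and adipogenic genes tested among 27 named, 2 (18.2%) were higher and 6 (54.5%) lower. The adipogenic factor Klf15 changed by -1.45, and Scd, a fatty acid desaturase, rose by 3.03 (SE 0.20, adjusted p = 2.32e-06).

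Genes of the cell cycle were mostly higher with TGF-β. Of 46 named, 43 were tested, and 36 (83.7%) were higher and 1 (2.33%) lower, beside 33.7% and 38.0% of all genes. Their median was 1.02. Gins2, a subunit of the replicative helicase, was the 1 that fell, by 0.75 on the log2 scale. Ccne1 (ENSRNOG00000014786), cyclin E1, had 2.16, 3.29 and 2.02 CPM in control libraries and 32.1, 33.7 and 32.0 CPM with TGF-β, a log2 difference of 3.71 (SE 0.16, adjusted p = 2.30e-11). Cdc6, which loads the helicase at origins, had 5.82, 5.25 and 4.22 CPM in control libraries and 58.9, 64.4 and 58.0 CPM with TGF-β, a log2 difference of 3.56 (SE 0.12, adjusted p = 1.27e-12), and cyclin E2 (Ccne2) rose by 2.66. The libraries of both groups were tight for these genes. Mki67, the proliferation marker Ki-67, had 572, 313 and 568 CPM in control libraries and 566, 542 and 555 CPM with TGF-β. With control replicate 2 the lowest library its groups overlapped, while control replicates 1 and 3 lay just above every TGF-β library. Its change of 0.20 did not pass (edgeR adjusted p = 0.474) and was -0.04 without control replicate 2. The list median was -0.15 in control replicate 2 relative to the other controls. Without replicate 2 in every group 38 members were higher and 3 lower, with a median of 0.89. The pair added to those lower was the mitotic genes Cdc20, at -0.47, and Kif20a, at -0.21; without control replicate 2 alone Cdc20 was added. Whether shares of cells in a phase differed was not measured.

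CDK inhibitors and p53 targets split, with 11 of 22 higher (50%) and 7 lower (31.8%), beside 33.7% and 38.0% of all genes, and a median of 0.27. Pmaip1, the BH3-only protein NOXA, had 45.9, 46.6 and 44.1 CPM in control libraries and 340.5, 339 and 325 CPM with TGF-β and rose by 2.88 (SE 0.06, adjusted p = 6.92e-15). Btg2, an antiproliferative gene, rose by 2.95 and Gadd45g, a stress sensor, by 2.59. Cdkn1a, which encodes p21 and is known as a TGF-β target, had 245, 210.1 and 241 CPM in control libraries and 138, 133 and 137 CPM with TGF-β and changed by -0.77 (SE 0.06, adjusted p = 2.12e-08).

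The highest list median was that of genes for amino acid supply. Of 40 ATF4, amino acid and one-carbon genes named, 35 were tested, with a median of 2.13. Among the 35, 32 (91.4%) were higher and none was lower, beside 33.7% and 38.0% of all genes. The amino acid transporter gene Slc1a4 was at the threshold, with a change of -0.15 (edgeR adjusted p = 0.050), and was called lower under several alternatives. Among these were both other filters, total counts (-0.34), leaving out control replicate 2 (-0.24) and leaving out every replicate 2 (-0.24). The replicate block (-0.15) and the 6 libraries without replicate 2 (-0.20) were others. Aldh1l2, a mitochondrial folate enzyme, had 0.60, 0.823 and 0.978 CPM in control libraries and 31.5, 29.1 and 34.4 CPM with TGF-β, a log2 difference of 5.30 (SE 0.21, adjusted p = 1.40e-11). Chac1, which degrades glutathione and is an ATF4 target, had 3.06, 3.10 and 2.99 CPM in control libraries and 69.9, 68.2 and 73.3 CPM with TGF-β, a log2 difference of 4.53 (SE 0.13, adjusted p = 5.00e-13). Slc7a11, the cystine transporter, had 2.34, 11.1 and 3.60 CPM in control libraries and 135, 119 and 119 CPM with TGF-β. Its controls ranged widely, with replicate 2 the highest, and the change was 4.47, or 5.39 without that library. Enzymes chosen after their values were seen followed the same direction. Psat1 and Phgdh, of serine synthesis, rose by 4.36 and 2.81, Pycr1, of proline synthesis, by 3.40, and Asns, asparagine synthetase, by 3.72.

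Most chaperones and secretory genes of the endoplasmic reticulum were higher. All 29 named were tested, and 26 (89.7%) were higher and 1 (3.45%) lower, beside 33.7% and 38.0% of all genes. Their median was 1.04. Hspa5, the chaperone BiP, had 268, 302 and 281 CPM in control libraries and 1549, 1459.6 and 1552 CPM with TGF-β, a log2 difference of 2.42 (SE 0.06, adjusted p = 1.03e-13). Sdf2l1, a BiP cofactor, rose by 3.23 and Pdia5, a disulfide isomerase, by 2.91. The member that fell was the ubiquitin ligase gene Syvn1 (-0.47). By total counts 24 were higher and 3 lower, Xbp1 and Sec23a being added, while the median of all genes was -0.24.

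Genes of cholesterol and fatty acid synthesis were mostly higher, and control replicate 2 stood apart from its partners in them. Of 30 named, 29 were tested, and 24 (82.8%) were higher and 2 (6.90%) lower, beside 33.7% and 38.0% of all genes. Their median was 1.08. The members that fell were Insig2 (-0.57) and Srebf1 (-0.57), which belong to the control of the pathway. Cyp51, a sterol demethylase, had 141, 344 and 139.9 CPM in control libraries and 926, 949.9 and 897 CPM with TGF-β, a log2 difference of 2.15 (SE 0.37, adjusted p = 0.00179), and Idi1, an isoprenoid isomerase, rose by 2.61. Control replicate 2 lay between the other controls and the TGF-β libraries for both, with a list median 0.48 log2 units above its partners. Without replicate 2 the list had 26 higher and 2 lower, with a median of 1.29.

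**Figure D5:**
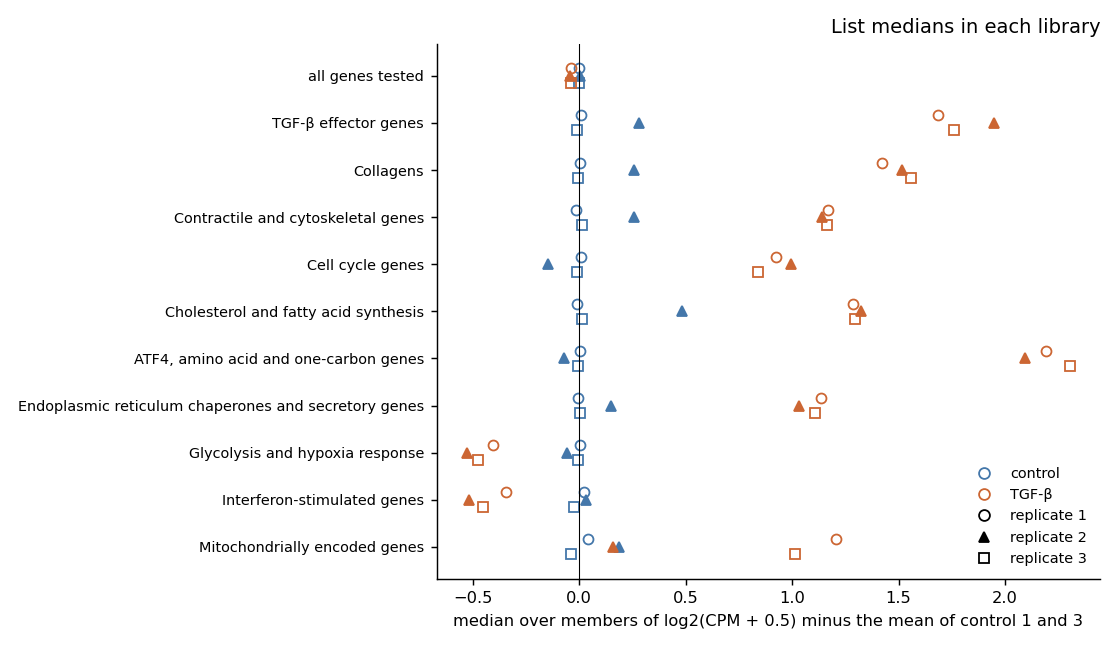
Median over the members of each list (rows) of log2(CPM + 0.5) minus the mean of control replicates 1 and 3 (x axis), for each library; blue is control, orange TGF-β, and filled triangles are replicate 2. Control replicate 2 is highest of the controls for cholesterol genes (0.48), and TGF-β replicate 2 lies beside the controls for mitochondrially encoded genes (0.16, against 1.21 and 1.01 in its partners).

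Most glycolytic and hypoxia genes were lower. Of 24 tested among 28 named, 5 (20.8%) were higher and 16 (66.7%) lower, beside 33.7% and 38.0% of all genes. Their median was -0.46. Ndrg1, a gene induced by low oxygen, had 448, 519.7 and 455 CPM in control libraries and 124, 119.6 and 118 CPM with TGF-β, a log2 difference of -1.98 (SE 0.06, adjusted p = 9.91e-13). Hk1, hexokinase 1, changed by -1.26 and Ankrd37, a HIF target, by -1.42. Antioxidant and NADPH oxidase genes had 5 higher (16.7%) and 16 lower (53.3%) of 30 tested, with a median of -0.26. Hmox1, heme oxygenase 1, had 84.7, 67.6 and 85.5 CPM in control libraries and 30.5, 26.2 and 37.1 CPM with TGF-β and changed by -1.34 (SE 0.15, adjusted p = 1.40e-05). Nox1, an NADPH oxidase, rose by 3.28 from a mean of 0.266 CPM. Nox4, the oxidase tied to fibroblast activation, had 4.98, 6.90 and 6.11 CPM in control libraries and 4.46, 5.55 and 6.49 CPM with TGF-β, with overlapping groups and no call (log2 change -0.13, edgeR adjusted p = 0.614).

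Of the other signalling lists, immediate early and MAP kinase feedback genes had 19 higher (61.3%) and 4 lower (12.9%) of 31 tested, with a median of 0.68. Phlda1, a growth factor feedback gene, had 8.81, 11.8 and 9.35 CPM in control libraries and 109, 116 and 115 CPM with TGF-β and rose by 3.51 (SE 0.09, adjusted p = 1.36e-13), Fos rose by 3.26 and Egr2 by 3.17. YAP and TEAD targets were near the background, with 10 higher (43.5%) and 7 lower (30.4%) of 23 and a median of 0.06. By total counts 8 were higher and 11 lower, with a median of -0.13. Over all 11444 genes, total counts gave 2965 higher and 5497 lower, with a median of -0.24. Without control replicate 3 the list median was -0.01. The YAP and TEAD list also holds Ccn2 (5.09, its largest rise) and Ccn1 (3.29), given above among the effectors. Nuak2, a kinase of that list, rose by 2.04 (SE 0.08, adjusted p = 8.87e-12). WNT and Notch genes had 10 higher (37.0%) and 14 lower (51.9%) of 27, with a share higher near the 33.7% of all genes, 38.0% of which were lower, and a median of -0.35. The ligand gene Wnt2 was higher by a ratio of 227 (95% counting interval 40.2 to 8999.8). Nkd1, a negative feedback gene of WNT signalling, rose by 3.17 (SE 0.22, adjusted p = 3.96e-08), and the nuclear effector Tcf7 by 2.51.

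Genes encoded in mitochondria rested on the choice of libraries. All 13 were tested, and 7 (53.8%) were higher and none was lower, beside 33.7% and 38.0% of all genes. Their median was 0.83. Mt-nd4, a subunit of complex I, had 621, 596 and 577 CPM in control libraries and 1983, 966 and 1701 CPM with TGF-β, a log2 difference of 1.37 (SE 0.28, adjusted p = 0.00363). TGF-β replicate 2 was nearer to the controls than to its partners. Without replicate 2 in every group 11 were higher and none lower, with a median of 1.12, and 10 were higher without TGF-β replicate 2 alone. Without control replicate 1, or without control replicate 3, 2 were. Mt-nd4l had 20.7, 29.3 and 19.5 CPM in control libraries and 86.5, 31.6 and 76.9 CPM with TGF-β and Mt-nd3 48.5, 79.4 and 46.7 CPM in control libraries and 156, 86.7 and 168 CPM with TGF-β. Their changes of 1.49 (SE 0.41, adjusted p = 0.0155) and 1.23 (SE 0.34, adjusted p = 0.0150) lost the call without control replicate 1 or 3, with adjusted p from 1.15e-26 to 0.0994 and from 1.32e-27 to 0.0980 over the alternatives. The mitochondrial share of all counts was 2.85 to 3.01% in control and 3.77, 2.13 and 3.41% with TGF-β.

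A few marker genes of other cell types also changed. The tubular list had Krt19 lower, as given above. Aqp1, a water channel, changed by -2.06 (-1.41 without control replicate 2, which had 75.1 CPM), and Cubn, the endocytic receptor cubilin, higher by 2.68 from a mean of 1.27 CPM. Of endothelial markers the factor Erg rose by 2.58 and Vwf, von Willebrand factor, changed by -2.09, both under 10 CPM in every library. Of macrophage markers Cd74, the invariant chain, had 16.7, 17.3 and 19.5 CPM in control libraries and 55.5, 53.7 and 56.5 CPM with TGF-β and rose by 1.63 (SE 0.08, adjusted p = 2.08e-10), while Cd68 changed by -0.86.

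Set against TGF-β in mouse TECs, the response of NRK49F differed for most genes. Of 9852 symbols found once in each table and tested, 7195 (73.0%) passed an edgeR test of the difference between the responses. Of 30 preset genes in it, 26 passed, 14 with the higher log2 change in NRK49F and 12 with the lower, and 8 of the 30 had opposite signs. Among the 8, in the fit of NRK49F alone, the sign of Mki67 turned without control replicate 2 and that of Nox4 without TGF-β replicate 1. Cell kind and species go together in this comparison and cannot be told apart.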

How the data were processed

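The authors deposited raw counts per gene for 9 NRK49F and 9 mouse TEC libraries, without normalization, as the whole numbers and unequal totals show. For the upstream steps HISAT2 2.1.0, DESeq2, featureCounts and the build mm10 are listed, per the submitters' processing notes. No rat build or strand setting is stated in the sources used here, so reads of overlapping or antisense genes cannot be told apart. The rat table was read by its Ensembl identifiers and symbols.

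NRK49F counts were filtered by group with edgeR 4.0.16 (filterByExpr, R 4.3.3) and scaled by TMM factors. All 9 libraries were fitted with the quasi-likelihood model (robust). The third group thus entered the filter, the scaling and the estimate of the spread. TGF-β was contrasted with control, p-values were adjusted by Benjamini-Hochberg over the 11444 genes tested, and an adjusted p under 0.05 was called. Every adjusted p printed comes from this edgeR test unless another is named. CPM values use the TMM-scaled totals. A log2 change is TGF-β minus control. For genes with 3 counts or fewer summed over a group, the ratio of CPM values is given with an exact 95% counting interval, or a bound at 3 counts over the group where there was none. Intervals cover counting error only.

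The genes named were 34 preset genes, the 12 largest changes each way among genes at 5 CPM or more in the higher group with no overlap between groups, and up to 3 called members of each of 27 gene lists and 5 marker lists at 1 CPM or more. The members and lists were chosen with earlier results of these data known, and genes outside the rule are said to be so or stand in a count of a list. Some genes that the rule names, or that a list holds, are not reported here. No list was tested as a set. The response was set against that of TECs by an interaction term over the 9852 symbols found once in each table. In simulated counts, the NRK49F fit recovered 95% of genes changed 2-fold and 98% of those changed 4-fold, with 18 genes called that had no change. Only 100 of the 11444 genes were changed at each size, far fewer than were called in the data. No replicate was made to stand apart. The simulation checks that the fit runs as intended and does not measure the error or the scaling of the calls given here.

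Alternatives were RLE factors, total counts, the DESeq2 1.42.0 Wald test, no filter, at least 10 counts in 3 libraries, the 6 libraries alone, the replicate number as a block, and leaving out libraries. After seeing the data, 3 were added, namely the 6 libraries with the block, the 6 libraries without replicate 2, and entries of a symbol summed. Rat sequences are not shown, since no rat genome was used here.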

Additional observations from a re-analysis of the deposited data

Results flagged for a closer look

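The response of 26 of 30 preset genes differed between NRK49F and TECs by the edgeR interaction test at an adjusted p under 0.05. Of all 9852 symbols tested, 7195 (73.0%) differed. Values, given for the preset genes reported here, are the log2 change in NRK49F minus that in TECs. Among genes of the pathway the difference was 1.35 for Tgfb1, -0.93 for Tgfbr1, 1.93 for Pmepa1, 0.53 for Skil and -0.72 for Smad7. It was -1.22 for Id1 and 0.77 for Id2. For effector and contractile genes it was 6.86 for Tagln, 5.12 for Acta2, 4.17 for Ccn2 and 1.08 for Vim. For the matrix it was 6.37 for Postn and 1.63 for Col3a1, but -0.92 for Col1a1, -0.85 for Fn1, -0.89 for Lox, -0.39 for Col5a1 and -1.06 for Timp1. The cadherins went apart, with 2.24 for Cdh2 and -1.35 for Cdh11. The remaining values were 2.95 for Mki67, 0.87 for Ccl2, -2.15 for Pdgfra, -1.28 for Nox4 and -1.82 for Hmox1.

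In 8 of the 30 preset genes in both tables the signs were opposite, namely Cdh2, Cdh11, Hmox1, Id1, Mki67, Nox4, Pdgfra and Timp1. The changes of Mki67, Nox4 and Cdh11 did not pass the test in NRK49F alone. Id1 changed by only 0.14 in TECs, and no test of the changes in TECs alone is given here. In the fit of NRK49F alone, the sign of Mki67 turned without control replicate 2 (-0.044) and that of Nox4 without TGF-β replicate 1 (0.0086). The 8 come from the joint fit with TECs, where the NRK49F changes were 0.24 for Mki67 and -0.08 for Nox4. Signs in the joint fit without single libraries are not given here, so the place of both genes among the 8 is uncertain. Cell kind and species cannot be told apart in any of these differences.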

How the results depend on the processing

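The count of genes changed stayed within 1.5 times its value, from 7713 to 8555, over the alternatives run, and from 7738 to 8436 with a single library left out. Those ranges were 2965 to 4258 and 3620 to 3997 for genes higher, 3807 to 5497 and 4081 to 4439 for genes lower, 2599 to 2961 and 2599 to 2704 for changes of at least 2-fold, 546 to 613 and 546 to 596 for list members called, and 7027 to 7415 and 7027 to 7381 for the difference to TECs. DESeq2 called 3995 genes higher and 4003 lower, and RLE factors gave 4058 and 4121. Same-numbered libraries did not deviate together, with correlations of their deviations from -0.04 to 0.12, so they were not taken as pairs. With the replicate number as a block 3835 genes were higher and 4334 lower, and with it in the 6 libraries alone 3906 and 3807.

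Of 121 named genes called, 119 kept the call in every alternative. Mt-nd4l lost it with the block in the 6 libraries (adjusted p = 0.0994) and without control replicate 1 (0.0538) or 3 (0.0549). Mt-nd3 lost it in the same settings and with the replicate block (0.0507). Cdh11 was called with the replicate block (-0.24, adjusted p = 0.00920) and with it in the 6 libraries (adjusted p = 0.0387), and Slc1a4 with the replicate block (-0.15). With the block in the 6 libraries 4 of the 13 mitochondrially encoded genes were higher. Values that changed sign were -0.044 for Tgfbr1 by total counts, -0.030 for Mki67 without every replicate 2, and 0.0090 for Nox4 in the 6 libraries without replicate 2. Mmp3 was 0.23 without every replicate 2 and 0.26 in the 6 libraries without replicate 2. With a single library left out, Mki67 ranged from -0.044 to 0.33, Nox4 from -0.26 to 0.0086 and Mmp3 from -0.17 to 0.11. The difference of Id3 to TECs was 0.10 without replicate 2 in NRK49F and ranged from -0.17 to 0.11 with a single library left out. The cause was not tested. Genes with few counts in a group have wide counting intervals, and depth limits their ratios.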

Other observations

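Further symbols with paired entries showed the same exchange of counts between the control and the other libraries. Calm2 had 409.6, 342 and 409 CPM in control and 50.3, 49.9 and 50.9 CPM with TGF-β at one entry, and 27.1, 33.0 and 27.7 and 312, 319.5 and 319 CPM at the other. Lrrc57, a leucine-rich repeat gene, went from 20.9, 16.5 and 20.2 to 1.05, 0.216 and 0.141 CPM and from 0.540, 0 and 0.367 to 17.4, 17.9 and 17.1 CPM, and its sum changed by -0.12 (edgeR adjusted p = 0.337). Ncbp2, a subunit of the nuclear cap-binding complex, had a sum that changed by -0.34 (adjusted p = 0.000174), and Setdb2, a histone methyltransferase gene, one that changed by -0.81 (adjusted p = 0.000810). An abundant entry pair carries the symbol NEWGENE_621351 and was not matched to a gene name here. It rose at both entries, with a sum of 3389.6 ± 729 CPM in control and 23278 ± 1222 CPM with TGF-β (SD, n = 3 libraries per group, log2 change 2.78, edgeR adjusted p = 4.06e-09).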
